A study of Mus musculus with 5 samples.

Results

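Genes of Wnt signalling were examined in mouse pancreatic islet cells that had been separated by flow cytometry according to Flattop. The set was defined by gene symbol: the Wnt, Fzd, Sfrp, Dkk and Rspo families, with Frzb, Lrp5, Lrp6, Lgr4, Lgr5, the axins, Apc, Ctnnb1, the Gsk3 kinases, the TCF/LEF factors, Znrf3 and Rnf43, and without Fzd3 and Fzd6. It held 56 of the 19938 genes measured by a probe set with a single symbol. Of these, 55 were pathway genes, and the other was Fzd10os, a long noncoding RNA that shares the start of its symbol with Fzd10. Tcf7 was not analysed here. There were 3 arrays of Flattop-positive cells and 2 of Flattop-negative cells. All cells came from untreated C57BL/6 mice aged 8 to 12 weeks that were heterozygous for Flattop (FVR/+), so positive and negative cells shared the genotype, and no mice without the modified allele were compared. Each array held RNA from a pool of 4 to 6 mice of undetermined sex, and a group was defined by the sort alone. The labels do not say that pools of different arrays came from different mice, so p-values measure the spread between these arrays.

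Wnt proteins are secreted, lipid-modified ligands that bind Frizzled receptors. With the co-receptors LRP5 and LRP6, canonical Wnts stop a destruction complex of axin, APC and GSK3 from marking β-catenin for degradation, and stabilised β-catenin then acts with TCF/LEF factors on target genes. Other Wnts signal through Frizzled without β-catenin, in part through planar cell polarity, the pathway of which Flattop is an effector. In the islet, Wnt signalling is known for its links to β-cell growth, and TCF7L2 for its association with type 2 diabetes in human genetics. By its title the series set out to tell dividing from mature β-cells, and the question here is which Wnt genes separated the sorted fractions.

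Values are deposited log2 signals, and a difference is Flattop-positive minus Flattop-negative, given with the standard error (SE) of the limma fit. The Flattop gene Cfap126 stood at 6.07, 6.07 and 6.24 in the positive arrays and at 5.52 and 5.44 in the negative arrays, in the order of their replicate numbers, which is used throughout. The islet hormone genes Ins2 and Gcg were at 12.369 or more on all 5 arrays. As a floor, the 95th percentile of 1027 olfactory receptor genes was taken on each array. It lay between 4.29 and 4.45 on the positive arrays and at 4.75 and 4.86 on the negative arrays. The negative arrays disagreed with each other more than any other pair (r = 0.879 across the 56 genes, against 0.983 for positive replicates 1 and 2, as a description).

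None of the 56 genes differed at an adjusted p under 0.05 (smallest 0.228, limma with Benjamini-Hochberg adjustment over all genes), and the share over all genes was 0%. At an unadjusted p under 0.05 there were 6 of the 56, and 2760 of all genes. By a looser rule, an unadjusted p under 0.05 with at least a 1.5-fold difference, 5 of the 56 genes stood out, against 11.8% of all genes. Lrp5 was the 1 gene higher in Flattop-positive cells (8.08% of all genes were). Wnt5b, Wnt6, Fzd5 and Dkk3 were lower, which is 7.14% of the set against 3.74% of all genes. With both directions counted together, the share was near the background. By direction it was smaller for higher genes (1.79% against 8.08%) and larger for lower genes. With dim genes left out, 0 of 33 were higher and 3 lower (9.09%), against 11.3% and 1.81% of the genes kept. The median difference was -0.18 over the 56 genes and -0.10 over all genes, and it changed sign for the 56 genes after cyclic loess (0.02), on repeated quantile normalisation (0.02) and with arrays centred on olfactory receptor genes (0.12). That last scaling also moved the median of all genes to 0.20, and gave 5 higher and 1 lower gene in the set, against 1 and 4 as deposited (over all genes 2983 and 68, against 1610 and 746). In bulk RNA of sorted cells, fewer cells of a type and less RNA per cell cannot be told apart.

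**Figure D1:**
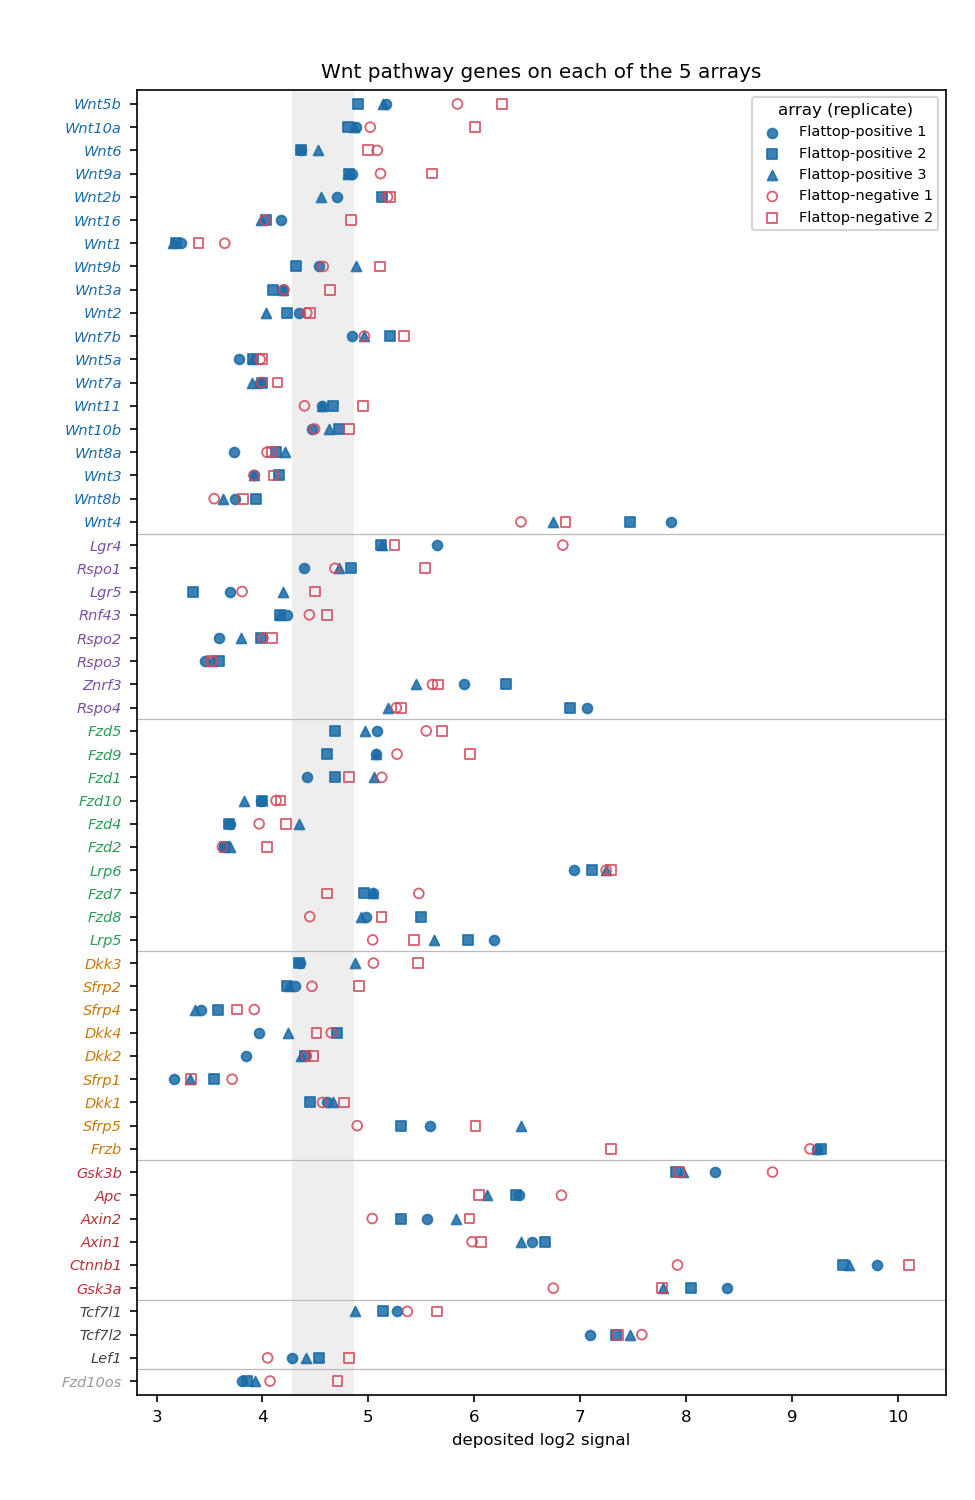
Deposited log2 signal (x axis) of each of the 56 genes (rows, coloured and grouped by role) on the 3 Flattop-positive arrays (filled) and the 2 Flattop-negative arrays (open), with the marker shape giving the replicate number. The grey band spans the floor set by olfactory receptor genes, 4.29 to 4.86; 23 of the 56 genes lay above their array's floor on all 5 arrays and 19 on none.

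Many of the 56 genes were close to the floor. Above it on all 5 arrays were 23 genes, on some arrays 14, and on none 19. The groups did not overlap for 20 genes that were lower in Flattop-positive cells (35.7%, against 21.0% of all genes) and for 4 that were higher (7.14%, against 13.7%). Of those 20 lower genes, 9 were under the floor on every array, and of all olfactory receptor genes, whatever their level, 42.1% were lower without overlap. Differences followed signal across all genes. Their median was -0.25 for genes with a mean signal under 4, -0.28 from 4 to 5, and 0.37 from 7 to 9. For the Wnt genes the medians in these ranges were -0.18 (10 genes), -0.25 (23 genes) and 0.27 (6 genes). Between 5 and 6 the 14 Wnt genes had a median of -0.28 and all genes one of -0.01.

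**Figure D2:**
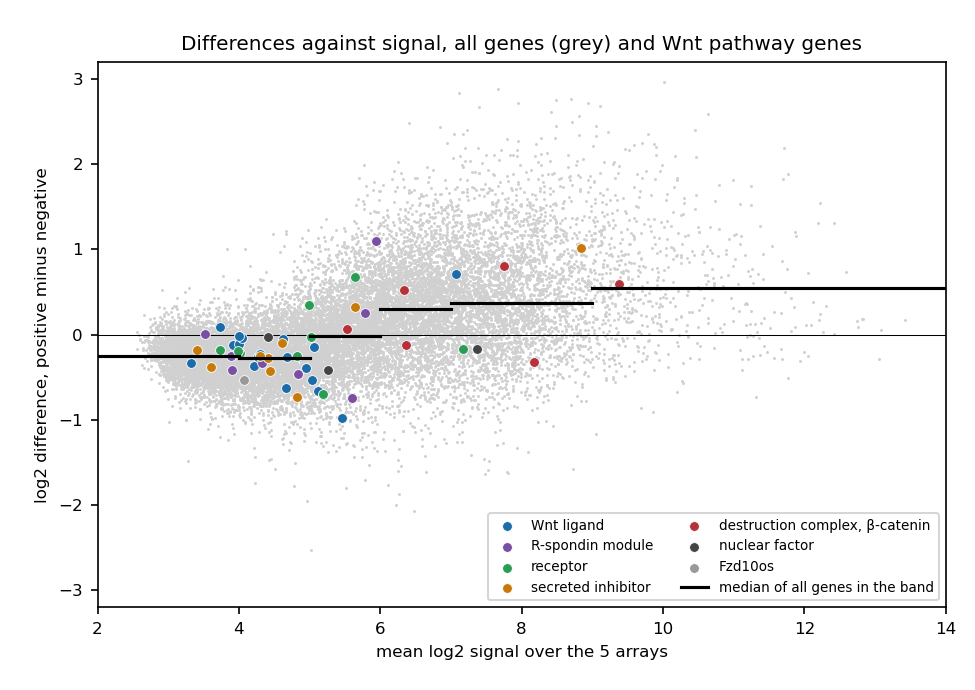
Log2 difference, Flattop-positive minus Flattop-negative (y axis), against the mean log2 signal over the 5 arrays (x axis) for all 19938 genes in grey and the 56 Wnt genes in colour by role. Black lines give the median of all genes within each band of signal, from -0.25 under a signal of 4 to 0.55 above 9; most Wnt ligands and Frizzled receptors lie in the low bands.

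Promoters are shown for 3 of the genes that were lower in Flattop-positive cells, Wnt5b, Wnt6 and Fzd5, and for Axin2, a textbook target of β-catenin. They hold 250 bases before the start of transcription and 50 from it on, 5′ to 3′ along the gene, and come from RefSeq on GRCm38.p6; promoter entries matched 37 of the 56 genes. Capitals mark the TCF/LEF core, searched as CTTTGAA, as CTTTGAT, as CTTTGTA and as CTTTGTT on both strands. Wnt5b has 3 listed starts, and the one shown is at chr6:119449337-119449636 on the minus strand. Wnt6 is at chr1:74771642-74771941 on the plus strand, Fzd5 at chr1:64737701-64738000 on the minus strand and Axin2 at chr11:108920099-108920398 on the plus strand.
Wnt5b: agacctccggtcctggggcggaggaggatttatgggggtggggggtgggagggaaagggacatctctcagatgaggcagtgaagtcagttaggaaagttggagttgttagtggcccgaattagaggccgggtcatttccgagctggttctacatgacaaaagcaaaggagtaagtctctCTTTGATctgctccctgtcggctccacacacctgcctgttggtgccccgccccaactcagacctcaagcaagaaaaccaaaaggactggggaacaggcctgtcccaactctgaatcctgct
Wnt6: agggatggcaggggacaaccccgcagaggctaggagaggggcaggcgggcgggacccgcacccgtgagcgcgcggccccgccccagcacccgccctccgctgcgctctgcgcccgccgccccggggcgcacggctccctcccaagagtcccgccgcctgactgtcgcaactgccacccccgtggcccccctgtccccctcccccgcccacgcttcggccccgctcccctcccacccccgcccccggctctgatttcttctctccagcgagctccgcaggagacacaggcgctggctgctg
Fzd5: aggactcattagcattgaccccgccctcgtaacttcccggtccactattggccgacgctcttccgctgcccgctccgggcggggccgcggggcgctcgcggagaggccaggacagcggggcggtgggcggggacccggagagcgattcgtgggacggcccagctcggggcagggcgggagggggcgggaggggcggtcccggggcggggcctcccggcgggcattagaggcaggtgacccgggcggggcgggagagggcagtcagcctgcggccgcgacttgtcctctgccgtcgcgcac
Axin2: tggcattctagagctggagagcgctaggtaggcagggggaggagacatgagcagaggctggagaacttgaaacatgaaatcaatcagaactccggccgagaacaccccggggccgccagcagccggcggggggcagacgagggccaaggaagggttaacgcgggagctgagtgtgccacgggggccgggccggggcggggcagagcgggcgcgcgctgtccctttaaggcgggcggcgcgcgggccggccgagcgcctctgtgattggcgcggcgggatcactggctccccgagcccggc
The Wnt5b window held 1 match, CTTTGAT, which begins at position -71 relative to the start. No match was present in the other 2 Wnt5b windows or in those of Wnt6, Fzd5 and Axin2. A match was found in 8 of 46 windows of the Wnt genes (17.4%) and in 16.9% of all 32851 windows. The windows of Wnt6, Fzd5 and Axin2 were 76.7%, 75.7% and 70.0% G and C, and the Wnt5b window shown 55%. The other 2 Wnt5b windows were 53.0% and 78.0%. The median was 67.0% over the 46 windows and 52.7% over all. Such a match describes the letters alone, and the array does not show which start was used.

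The 19 Wnt ligand genes were mostly faint, with 6 above the floor on all arrays (Wnt2b, Wnt4, Wnt5b, Wnt7b, Wnt9a and Wnt10a) and 8 on none. Wnt5b, a ligand mostly described in signalling without β-catenin, was at 5.17, 4.90 and 5.14 in Flattop-positive cells and at 5.84 and 6.26 in Flattop-negative cells. The groups did not overlap, and all 5 values were above the floor. Of the alternative analyses, only rescalings of the arrays (cyclic loess, quantile normalisation and centring) could therefore turn the sign for Wnt5b. Its mean of 5.07 ± 0.15 (SD, n = 3) against 6.05 ± 0.30 (SD, n = 2) gave a difference of -0.98 ± 0.22 (SE), 1.98-fold lower in positive cells, with an adjusted p of 0.228 in limma. It was lower in all 13 alternative analyses, from -1.19 to -0.68, with an unadjusted p under 0.05 in each and an adjusted p from 0.0974 to 0.804. Negative replicate 2 was the higher of the pair and also carried high Lyz2 and Vim, and without it the difference was -0.77.

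Wnt6 was at 4.36, 4.36 and 4.53 in Flattop-positive cells and at 5.08 and 5.0 in Flattop-negative cells, without overlap. It was above the floor, and narrowly, on 2 of the 3 positive arrays, so the size of its difference of -0.63 ± 0.18 (SE; adjusted p = 0.279 in limma) is uncertain. With arrays centred on olfactory receptor genes it was -0.33, and its unadjusted p was under 0.05 in 7 of 13 alternatives. Wnt10a, which lies next to Wnt6 in the genome, was at 4.88, 4.81 and 4.86 against 5.02 and 6.01. Those groups were apart as well, but the gap came mainly from negative replicate 2, without which the difference of -0.66 ± 0.32 (SE; adjusted p = 0.420 in limma) was -0.17. The other neighbouring pairs of ligand genes had differences of -0.26 and -0.54 for Wnt3a and Wnt9a, -0.26 and -0.01 for Wnt9b and Wnt3, and -0.05 and -0.33 for Wnt10b and Wnt1.

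Wnt4, a ligand known in islets and in kidney and gonad development, ran the other way. It was at 7.86, 7.47 and 6.75 in Flattop-positive cells and at 6.44 and 6.86 in Flattop-negative cells. Positive replicate 3 fell between the negative arrays, so the groups overlapped. The difference was 0.71 ± 0.37 (SE; adjusted p = 0.445 in limma), 0.46 without positive replicate 1 and 0.32 after cyclic loess. A second Wnt4 probe set read 7.19, 6.90 and 5.89 against 4.73 and 5.46, without overlap. Its difference was 1.57 ± 0.46 (SE), 2.96-fold higher (adjusted p = 0.286 in limma over 21789 probe sets). Both probe sets were highest on positive replicates 1 and 2 and lowest on negative replicate 1, and they differed in the place of positive replicate 3.

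Wnt5a, the paralogue of Wnt5b and a ligand of planar cell polarity, was under the floor on all arrays, between 3.78 and 3.91 in Flattop-positive cells and at 3.98 and 4.00 in Flattop-negative cells. Wnt11, another ligand of that kind, was at 4.57, 4.67 and 4.57 against 4.40 and 4.95, with full overlap. Wnt9a was at 4.84, 4.82 and 4.81 against 5.12 and 5.6, a difference of -0.54 ± 0.22 (SE; adjusted p = 0.365 in limma) that was -0.29 without negative replicate 2. In total 17 of the 19 ligand genes had a difference below 0, with Wnt4 and Wnt8b as the exceptions. Below 0 were also 11802 of all 19938 genes and 937 of 1027 olfactory receptor genes, so the sign is not particular to the ligands. The count of ligand genes below 0 was 11 without negative replicate 2 and 14 with arrays centred on their medians. It was 9 after cyclic loess or repeated quantile normalisation and 7 with arrays centred on olfactory receptor genes.

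**Figure D3:**
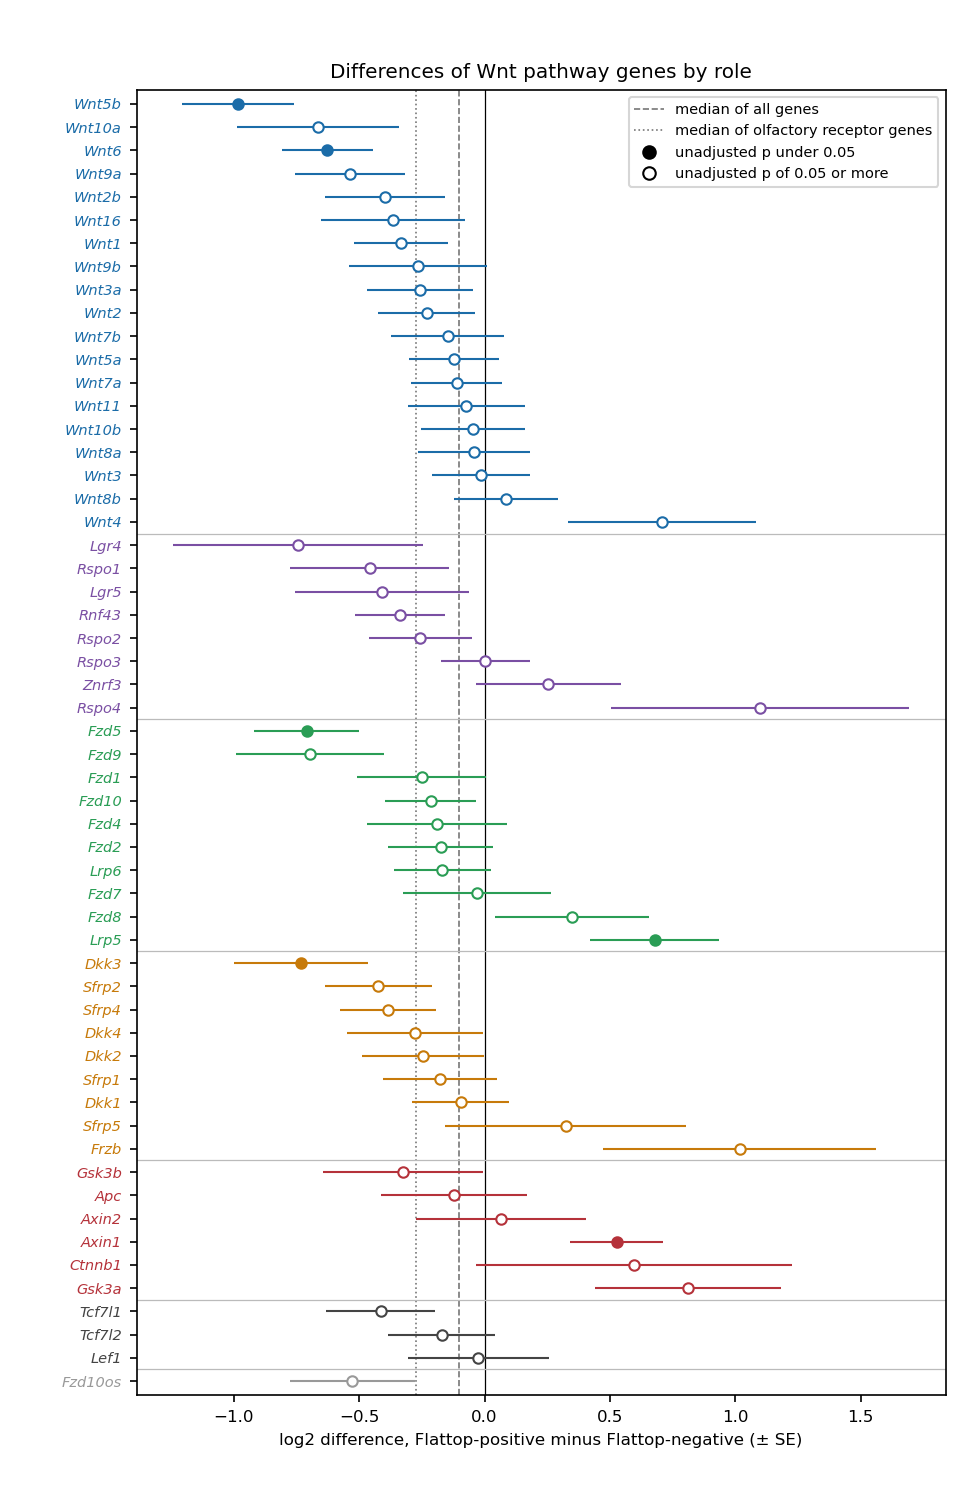
Log2 difference, Flattop-positive minus Flattop-negative, with its SE (x axis) for the 56 genes, sorted within each role (colours as in the row labels). Filled points have an unadjusted p under 0.05 in limma and none passed after adjustment; the dashed and dotted lines mark the medians of all genes (-0.10) and of olfactory receptor genes (-0.27), and with arrays centred on olfactory receptor genes the median of the 56 genes turned from -0.18 to 0.12.

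R-spondins are secreted proteins that bind LGR receptors and keep the ubiquitin ligases ZNRF3 and RNF43 from removing Frizzled from the cell surface. Rspo4 was at 7.07 and 6.90 in Flattop-positive replicates 1 and 2, and at 5.19 in replicate 3. The negative arrays, at 5.27 and 5.31, lay with positive replicate 3. The difference of 1.10 ± 0.60 (SE; adjusted p = 0.455 in limma) therefore came from 2 of the 3 positive pools, and without replicate 3 it was 1.70. Rspo1 was at 4.40, 4.84 and 4.72 against 4.69 and 5.54, and Rspo2 and Rspo3 were under the floor on all arrays.

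The receptor Lgr4 was at 5.65, 5.12 and 5.13 in Flattop-positive cells and at 6.84 and 5.25 in Flattop-negative cells. Negative replicate 1 stood alone, and the difference of -0.74 ± 0.50 (SE; adjusted p = 0.518 in limma) was -1.54 without negative replicate 2 and 0.05 without negative replicate 1. Lgr5, a marker of Wnt-responsive stem cells in gut and other epithelia, was under the floor on all arrays, between 3.34 and 4.20 in positive cells and at 3.81 and 4.49 in negative cells. Znrf3 was at 5.91, 6.30 and 5.46 against 5.61 and 5.66, with both negative values inside the positive range. Rnf43, the other ligase and like Znrf3 a known target of the pathway, was between 4.17 and 4.23 against 4.44 and 4.61, under the floor on all arrays.

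Among the 10 receptor genes, Fzd5, a Frizzled of canonical and other Wnt signals, was at 5.08, 4.69 and 4.97 in Flattop-positive cells and at 5.55 and 5.70 in Flattop-negative cells. The groups were apart, with all values above the floor. As for Wnt5b, only the rescalings among the alternatives could turn the sign. Means of 4.91 ± 0.20 (SD, n = 3) and 5.62 ± 0.11 (SD, n = 2) gave a difference of -0.71 ± 0.21 (SE), 1.64-fold lower in positive cells (adjusted p = 0.279 in limma). Its sign held in all 13 alternatives, from -0.79 to -0.41, with an unadjusted p under 0.05 in 10, and the negative arrays gave like values, -0.79 without replicate 1 and -0.64 without replicate 2. Fzd9 was at 5.07, 4.61 and 5.07 against 5.27 and 5.96, also without overlap, and its difference of -0.70 ± 0.30 (SE; adjusted p = 0.381 in limma) was -0.35 without negative replicate 2.

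The co-receptor Lrp5 was at 6.19, 5.95 and 5.62 in Flattop-positive cells and at 5.04 and 5.43 in Flattop-negative cells. All positive values exceeded both negative values, so here too only the rescalings could turn the sign in the alternatives. The means were 5.92 ± 0.29 (SD, n = 3) and 5.24 ± 0.28 (SD, n = 2), a difference of 0.68 ± 0.26 (SE), 1.60-fold higher (adjusted p = 0.341 in limma). It was higher in all 13 alternatives, from 0.48 to 0.98, but had an unadjusted p under 0.05 in 7 of them. It missed that threshold without positive replicate 1, positive replicate 2 or negative replicate 1, and with the replicate block, dim genes left out or a variance trend. Its paralogue Lrp6 was at 6.94, 7.12 and 7.25 against 7.25 and 7.30, a difference of -0.17 ± 0.19 (SE; adjusted p = 0.690 in limma) that turned to 0.13 with arrays centred on olfactory receptor genes. The difference between the paralogues was not tested. Of the remaining Frizzled genes, Fzd1, Fzd7 and Fzd8 were above the floor on all positive arrays and on 1 negative array each, and Fzd2, Fzd4 and Fzd10 on none. Fzd7 was at 5.04, 4.96 and 5.05 against 5.48 and 4.61, so the negative arrays lay on either side of the positive ones. Fzd1 was at 4.43, 4.69 and 5.05 against 5.13 and 4.82.

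The secreted inhibitors include the Sfrp proteins and Frzb, which bind Wnts, and the Dkk proteins, most of which bind LRP co-receptors. Frzb was at 9.24, 9.27 and 9.23 in Flattop-positive cells, at 9.17 in Flattop-negative replicate 1 and at 7.29 in replicate 2. All arrays other than negative replicate 2 thus lay close together. The difference of 1.02 ± 0.54 (SE; adjusted p = 0.450 in limma) was 0.08 without that array and 1.96 without negative replicate 1. Dkk3, a divergent Dkk protein not known to bind LRP6 as Dkk1 does, was at 4.36, 4.35 and 4.88 against 5.05 and 5.47. The groups did not overlap, but only 2 of the 3 positive values were above the floor. Its difference was -0.73 ± 0.27 (SE; adjusted p = 0.333 in limma), -0.52 without negative replicate 2 and -0.43 with arrays centred on olfactory receptor genes, with an unadjusted p under 0.05 in 7 of 13 alternatives. Sfrp5 was at 5.58, 5.31 and 6.44 against 4.90 and 6.01, with overlap. Dkk1, Dkk2, Dkk4, Sfrp1, Sfrp2 and Sfrp4 had differences from -0.42 to -0.10 and were under the floor on at least 2 arrays each.

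The 6 genes of the destruction complex and β-catenin were above the floor on every array. Ctnnb1, which encodes β-catenin, was at 9.81, 9.49 and 9.54 in Flattop-positive cells, at 10.11 in Flattop-negative replicate 2 and at 7.92 in negative replicate 1. The negative arrays lay on either side of the positive ones. The difference of 0.60 ± 0.63 (SE; adjusted p = 0.664 in limma) was -0.50 without negative replicate 1 and 1.69 without negative replicate 2. The kinase gene Gsk3a was at 8.39, 8.05 and 7.78 against 6.75 and 7.78, so positive replicate 3 and negative replicate 2 were level to the printed digit. Its difference was 0.81 ± 0.37 (SE; adjusted p = 0.402 in limma), and 0.30 without negative replicate 1. Gsk3b was at 8.28, 7.90 and 7.97 against 8.82 and 7.93, a difference of -0.33 ± 0.32 (SE), and negative replicate 1 was again the array that stood apart.

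The scaffold Axin1 was at 6.55, 6.66 and 6.44 in Flattop-positive cells and at 5.98 and 6.07 in Flattop-negative cells. These groups were well apart, so among the alternatives only the rescalings could turn the sign. The difference of 0.53 ± 0.19 (SE), 1.44-fold (adjusted p = 0.323 in limma), was positive in all 13 alternatives, from 0.25 to 0.83, with an unadjusted p under 0.05 in 4, and was 0.48 without negative replicate 1 and 0.57 without replicate 2. Axin2, both a scaffold and a feedback target of β-catenin, was at 5.55, 5.30 and 5.83 against 5.04 and 5.96. Its positive values lay between the negative ones, and the difference was 0.07 ± 0.34 (SE; adjusted p = 0.939 in limma). Apc was at 6.43, 6.40 and 6.12 against 6.82 and 6.05, likewise between the negative arrays.

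Of the nuclear factors, Tcf7l2 was at 7.09, 7.34 and 7.47 in Flattop-positive cells and at 7.58 and 7.36 in Flattop-negative cells. The groups overlapped, and the difference was -0.17 ± 0.21 (SE; adjusted p = 0.712 in limma). It was -0.60 after cyclic loess and 0.13 with arrays centred on olfactory receptor genes. Tcf7l1, often a repressor of Wnt targets, was at 5.27, 5.14 and 4.88 against 5.37 and 5.65, narrowly apart, with a difference of -0.42 ± 0.22 (SE; adjusted p = 0.445 in limma). Lef1 was above the floor on only 1 array, at 4.28, 4.53 and 4.42 against 4.05 and 4.82. The noncoding Fzd10os was under the floor on all arrays, between 3.81 and 3.93 against 4.07 and 4.71.

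**Figure D4:**
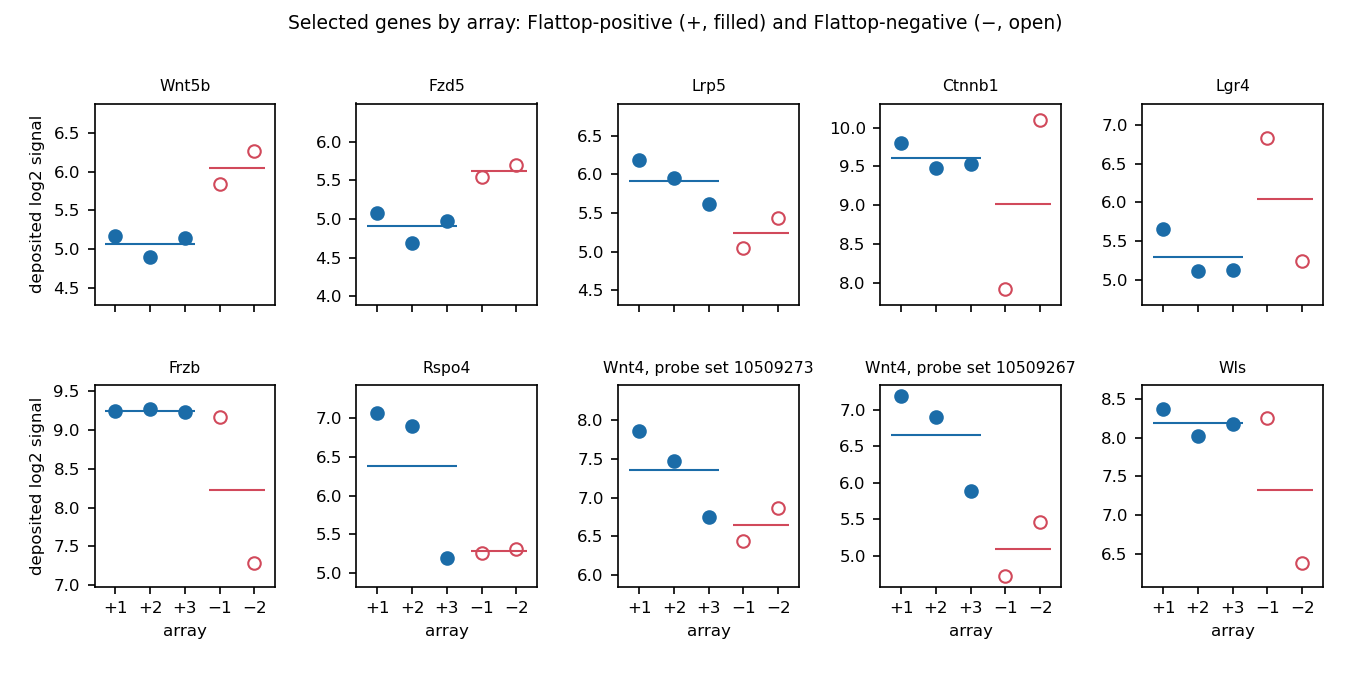
Deposited log2 signal (y axis, a separate range in each panel) on the 3 Flattop-positive (+1 to +3) and 2 Flattop-negative (−1, −2) arrays, with group means as lines, for Wnt5b, Fzd5, Lrp5, Ctnnb1, Lgr4, Frzb, Rspo4, both Wnt4 probe sets and Wls. Wnt5b, Fzd5 and Lrp5 separate the groups on every array, whereas Ctnnb1 (7.92) and Lgr4 (6.84) stand apart on negative replicate 1 and Frzb (7.29) and Wls (6.38) on negative replicate 2.

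The negative arrays split the set. Without negative replicate 1, 10 genes of the set were lower and 1 higher at the looser rule, and without negative replicate 2 the counts were 5 and 3. Wnt5b and Fzd5 were lower both times. Frzb was the higher gene in the first case, and Ctnnb1, Gsk3a and Lrp5 in the second. The background moved too, to 11.0% lower and 12.2% higher over all genes without replicate 1, and 11.0% and 12.6% without replicate 2. With 1 negative array left, that array is assumed to vary like the positive ones. Without negative replicate 2, 434 of all genes passed the adjusted threshold and none of the 56 did (smallest adjusted p = 0.0513 in limma, for Ctnnb1; over the alternatives its adjusted p ran from 0.0513 to 0.970).

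**Figure D5:**
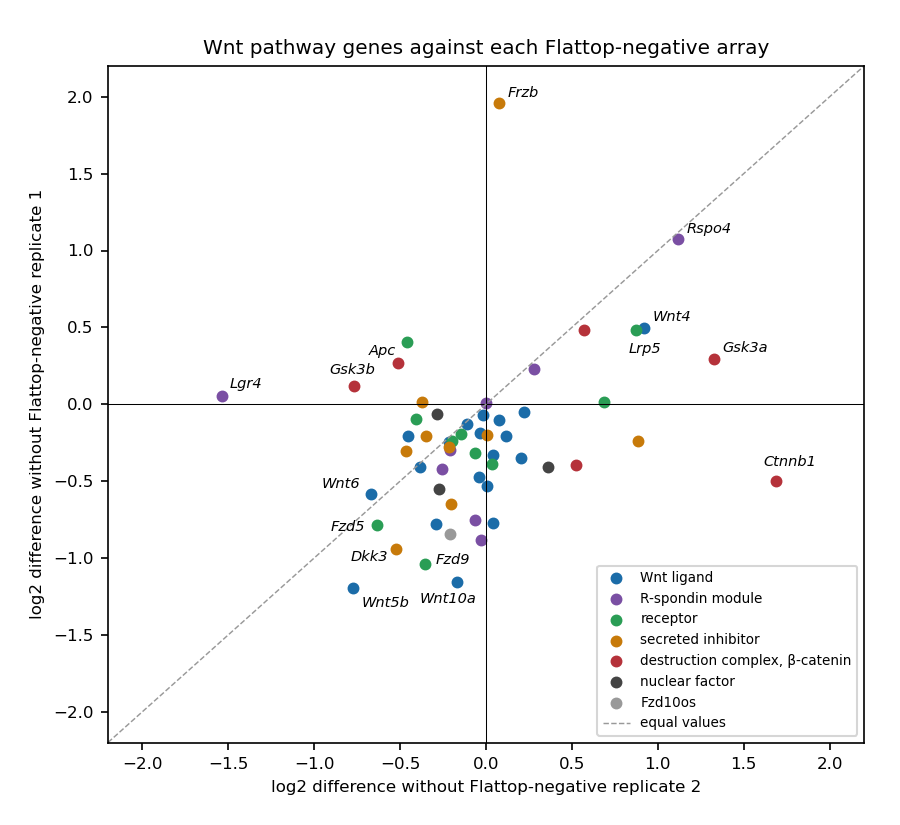
Log2 difference of each of the 56 genes against the Flattop-positive arrays when only Flattop-negative replicate 1 was kept (x axis, without replicate 2) or only replicate 2 (y axis, without replicate 1). Wnt5b (-0.77 and -1.19), Fzd5 (-0.64 and -0.79) and Lrp5 (0.88 and 0.48) lie on the same side of 0 on both axes, while Ctnnb1 (1.69 and -0.50) changes sign and Lgr4 (-1.54 and 0.05) and Frzb (0.08 and 1.96) lie near 0 on 1 axis.

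Stellate and mesenchymal, macrophage, δ-cell and PP-cell markers differed most on single Flattop-negative arrays. As deposited, 11802 of all 19938 genes and 937 of 1027 olfactory receptor genes had differences below 0. The 14 stellate and mesenchymal markers all did (10 with arrays centred on olfactory receptor genes and 10 without negative replicate 2). Of these markers, 4 to 8 were above the floor on each array. Their summed linear signal was 264 to 342 on the positive arrays, 320 on negative replicate 1 and 860 on replicate 2. Of 13 macrophage markers 11 were below 0, 7 with that centring and 4 without negative replicate 2, when their median turned from -0.32 to 0.17. Their sums were 355 to 459 on the positive arrays, 317 on negative replicate 1 and 1206 on replicate 2. Within this list Cd68, C1qa, Csf1r and Fcer1g were above the floor on all 5 arrays and Adgre1 and Ptprc on none. C1qa was higher in Flattop-positive cells without overlap, at 7.15, 6.98 and 6.02 against 4.95 and 5.84. Lyz2 was at 9.41 and Vim at 8.59 on negative replicate 2, and at most 4.58 and 5.64 on the other arrays.

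The 9 acinar markers measured were all below 0 as deposited (sums of 168 to 201 against 243 and 435). With arrays centred on olfactory receptor genes 7 were below 0. On each array 2 to 5 acinar and 1 to 3 endothelial markers were above the floor. The 11 endothelial markers were also all below 0 as deposited (170 to 187 against 194 and 268), but 3 with that centring and 6 without negative replicate 2. Egfl7 was above the floor on all 5 arrays and Pecam1 and Flt1 on negative replicate 2 alone, while Cdh5, Kdr, Tek, Plvap, Esam and Emcn were above it on none. The 10 β-cell markers were all above 0 (8 after cyclic loess), with a median difference of 1.23, and 8 were higher without overlap. Of these 10 markers, 7 were higher at the looser rule, against 8.08% of all genes. Their median was 1.18 without negative replicate 1, 0.999 without negative replicate 2 and 0.801 after cyclic loess. The 6 markers of δ- and PP-cells summed to 3953 on negative replicate 1, 32470 on replicate 2 and 15620 to 23850 on the positive arrays. The part of these cell types in the differences of the Wnt genes was not tested.

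Outside the set, 56 further genes of the pathway were listed and all were measured. Their median difference was 0.05, against -0.10 for all genes; it was -0.02 after cyclic loess and 0.35 with arrays centred on olfactory receptor genes. At the looser rule 8 were higher and 1 lower, or 14.3% and 1.79%, against 8.08% and 3.74% of all genes. With dim genes left out, these background shares were 11.3% and 1.81%, and the background median was 0.13. Of the 56 listed genes, 47 were above the floor on all arrays. After cyclic loess 2 were higher and 3 lower, against 3.95% and 2.96% of all genes. With a positive array left out, 4 to 6 were higher, against 4.66% to 7.71% of all genes. Then 0 or 1 were lower, against 1.34% to 3.15%. The median of the 56 was 0.07 without negative replicate 1 and 0.17 without negative replicate 2. None passed the adjusted threshold (smallest 0.218, limma). Dvl3, which relays Frizzled signals to the cytoplasm, was at 7.60, 8.03 and 7.40 in Flattop-positive cells and at 6.03 and 6.67 in Flattop-negative cells, 2.51-fold higher without overlap. Cxxc4, whose product binds Dishevelled and inhibits the pathway, was at 7.12, 7.47 and 7.46 against 6.45 and 6.11, 2.10-fold higher. Porcn, the acyltransferase that lipid-modifies Wnts for secretion, was at 6.59, 6.40 and 6.32 against 5.63 and 5.97, a difference of 0.64 ± 0.21 (SE; adjusted p = 0.309 in limma).

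The co-repressor genes Tle5 and Ctbp1 were 2.07-fold and 2.88-fold higher, but Ctbp1 was at 5.30 on negative replicate 1 and at 7.06 or more elsewhere, and without that array its difference was 0.65 in place of 1.53. Without the same array that of Tle5 was 0.63 in place of 1.05. The glypican gene Gpc4 (0.73), the ubiquitin ligase subunit gene Btrc, whose product marks β-catenin for degradation (0.63), and the kinase gene Csnk1d (0.83) were the others higher. Csnk1d was at 0.49 without negative replicate 1, and after cyclic loess Gpc4 was at 0.25, Btrc at 0.15 and Csnk1d at 0.38. The lower gene was Kremen2, a Dkk receptor gene named after its value was seen (-0.60), which was above the floor on 4 of 5 arrays and was at -0.35 without negative replicate 2 and -0.30 with arrays centred on olfactory receptor genes. Wls, which carries Wnts to the cell surface and was named after its values were seen, was at 8.37, 8.02 and 8.17 against 8.26 and 6.38. Like Frzb, it stood apart on negative replicate 2 alone.

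Of 26 known target genes 24 were measured. At the looser rule none was higher or lower, against 8.08% and 3.74% of all genes, and none had an unadjusted p under 0.05 in limma. Their median difference was -0.19 as deposited and 0.11 with arrays centred on olfactory receptor genes (-0.10 and 0.20 for all genes). It was 0.23 without negative replicate 2 and -0.26 without negative replicate 1 (-0.07 and -0.08 for all genes). Of the 24, 8 were below 0 without negative replicate 2 and 16 without negative replicate 1, against 11111 and 11322 of 19938 genes. The absence of calls as deposited thus rests on a mean over negative arrays that disagreed. The choice of those described here came after seeing values. The feedback inhibitor genes Nkd1 and Notum were under the floor on all 5 arrays. The cyclin gene Ccnd2 was at 11.26, 11.49 and 11.38 against 9.44 and 11.07, and Ccnd1 at 9.54, 9.87 and 8.76 against 8.01 and 9.04. Myc ranged from 5.69 to 9.09 within the positive arrays and was at 7.11 and 8.85 in the negative ones. Several of these genes answer to other signals as well.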

How the data were processed

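Each array measured RNA of 1 pool of sorted islet cells, amplified and labelled with biotin before hybridisation. Per the submitters' processing notes, Affymetrix Expression Console 1.3.0.187 was used, and the authors deposited the RMA result as log2 signals. Array medians of these values still ran from 4.74 to 4.98, higher on both Flattop-negative arrays. A genome build for the probe sets was not given in the sources used here. Precision is limited by the number of arrays.

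Of 35556 probe sets, 21789 carried 1 symbol in the platform annotation; each of 19938 genes was read from its brightest probe set on average. The fit used limma 3.58.1 (R 4.3.3) on all 5 arrays, with group as the only term, moderated variances, two-sided tests and Benjamini-Hochberg adjustment over all genes. The model was also run on simulated independent normal values, which do not mimic negative arrays that disagree. With so few arrays, the smallest p of an exact permutation test (one-sided) is 0.1. Signal medians and folds use no filter; leaving out dim genes kept 12261 genes and 33 of the 56.

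Genes were given array by array if at an unadjusted p under 0.05, if at least 1.5-fold apart without overlap, or if in a list of core pathway genes; other genes served as examples. From other lists, up to 8 genes with the smallest p past the looser rule were named. Members, lists and rules were chosen with earlier results of these data known. Of the marker lists, α-cell genes (6 measured) had a median of -0.30 and duct genes (7) one of 0.04; these were -0.64 and -0.44 without Flattop-negative replicate 1, and 0.29 and 0.30 without replicate 2. Alternatives were the replicate block, each array left out, 3 other normalisations, a filter on dim genes, mean probe sets and a variance trend; centring on olfactory receptor genes was added after seeing the data. Plots were drawn in matplotlib 3.10.9.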

Additional observations from a re-analysis of the deposited data

How the results depend on the processing

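Over 13 alternatives, the 27 genes chosen by the naming rule kept their sign in 317 of 347 values. That count overstates stability, since many of these signs could not turn. A variance trend and the filter on dim genes leave a difference as it was, as do mean probe sets for a gene with 1 probe set. The replicate block repeats the differences without positive replicate 3. For genes without overlap, leaving out an array cannot turn the sign. None of the 27 passed the adjusted threshold in any alternative. No gene of the whole table passed in 12 of 13; the range with an array left out was 0 to 434. With an array left out, the number of Wnt genes higher at the looser rule ran from 0 to 3, the number lower from 1 to 10, and the median from -0.24 to -0.090. With a positive array left out, 0 to 3 were higher and 1 to 4 lower, against 4.66% to 7.71% and 1.34% to 3.15% of all genes. With the replicate block, 2 were higher and 2 lower, against 6.98% and 1.93% of all genes. Positive replicate 3 has no partner and drops out of that fit. The numbers do not pair the samples by any label, and deviations of same-numbered arrays correlated at 0.18 and -0.14. The count of higher genes was 2 with arrays centred on their medians and with mean probe sets, 0 with dim genes left out and with a variance trend, and 5 with arrays centred on olfactory receptor genes, when the count of lower genes was 1. The median turned to 0.022 after cyclic loess, to 0.017 on quantile normalisation and to 0.12 with that last centring.

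The signs that turned were these. With arrays centred on olfactory receptor genes, Apc was at 0.18, Fzd1 at 0.050, Fzd7 at 0.27, Lef1 at 0.28, Lrp6 at 0.13, Tcf7l2 at 0.13, Wnt11 at 0.23 and Wnt5a at 0.18. After cyclic loess Fzd7 was at 0.11, Lef1 at 0.25, Wnt11 at 0.18 and Wnt5a at 0.15; on quantile normalisation Axin2 was at -0.031, Fzd7 at 0.049, Lef1 at 0.25, Wnt11 at 0.16 and Wnt5a at 0.15. Centring on medians gave 0.027 for Fzd7 and 0.032 for Lef1, and the replicate block gave -0.069 for Axin2. With an array left out the ranges were -0.51 to 0.27 for Apc, -0.39 to 0.52 for Axin2, -0.50 to 1.69 for Ctnnb1, -0.46 to 0.40 for Fzd7, -0.77 to 0.12 for Gsk3b, -0.41 to 0.36 for Lef1, -1.54 to 0.051 for Lgr4 and -0.35 to 0.20 for Wnt11. The cause of these changes was not tested. Signal near the floor limits the sizes of differences for genes not above it on all arrays.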
